A study of Danio rerio with 3 samples.

Results

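The circadian clock genes described here are per1a, per1b, per2, per3, cry1a, cry5, clocka, nr1d1, nr1d2a and dbpa of the zebrafish. They were chosen by name, and their probes were found through the gene symbols in the annotation of the array platform. Of the 10 genes, 9 were measured, by 14 probes, among 15554 genes on the arrays. The exception, cry1a, was not analysed here because the annotation used held no probe under its symbol.

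RNA was taken from whole wild-type embryos of strain Ab at 48 hours post fertilisation. Treated embryos had been kept in 40 µM LY-364947, which blocks the kinase of TGF-β receptor 1, from 8 hours post fertilisation onwards, and untreated embryos served as controls. Each of 3 treated replicates, made of 10 to 15 embryos, was hybridised on a 2-colour array against 1 pool made of 3 untreated replicates. Treated embryos were labelled with Cy3 for replicates 1 and 3 and with Cy5 for replicate 2. The comparison asks which transcripts differ in abundance after the inhibitor.

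Each value is a log ratio between both dyes of an array, with the sign of replicate 2 turned so that all arrays run the same way. Its direction is not settled by the sources. Under the order of the sample titles, a positive ratio is higher in treated embryos, and under Cy5 over Cy3, the usual order for such arrays, it is higher in the untreated pool. Genes are therefore placed on a positive or a negative side, with no claim as to which group was higher. The log base is not given either. Base 2 was taken as likely for every fold below, and on base 10 each fold would be larger. The table holds no intensities, so neither the level of a gene nor its signal over background is known, and the whole-embryo label could not be checked against marker levels. In whole embryos, fewer cells of a type and less RNA per cell cannot be told apart. The number of arrays limits the precision.

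In vertebrates the clock is a transcriptional loop that runs in most cells. Clock and Bmal proteins bind E-box elements and switch on the period (per) and cryptochrome (cry) genes, whose products then block Clock and Bmal. In a second loop, Rev-erb proteins (the nr1d genes) repress and Ror proteins activate the bmal genes, and PAR bZIP factors such as Dbp act through D-box elements. Zebrafish tissues are themselves sensitive to light, which induces per2 and cry1a and sets the phase of the loop. Levels of such genes depend on the time of day and on light, and the labels used here give neither for these embryos.

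Most of the clock genes had ratios close to 0. By limma across all genes with Benjamini-Hochberg adjustment, 1 of the 9 measured genes, nr1d2a, passed an adjusted p of 0.05, on the positive side. Over all 15554 genes, 19.4% passed, of which the positive calls made up 9.95% of genes and the negative calls 9.44%. The share of clock genes called was 11.1%, so it was not above that background. The median size of the mean ratio was 0.067 among the clock genes and 0.089 over all genes, and among the genes that passed it was 0.33. Of the 9 genes, 6 had a positive and 3 a negative mean. All 3 arrays had the same sign for 3 of them (clocka, nr1d2a and dbpa), against 52.3% of all genes.

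**Figure D1:**
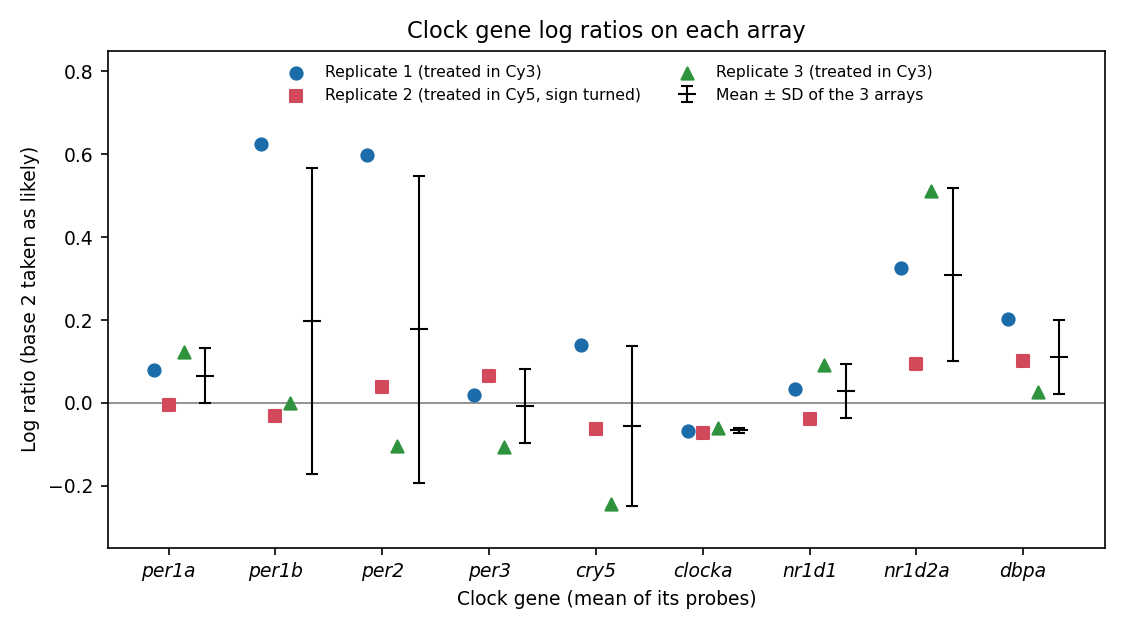
Log ratio of each clock gene (y axis, base 2 taken as likely, mean of its probes) on each of the 3 arrays, with the mean and SD in black. The genes per1b and per2 stand at 0.62 and 0.60 on replicate 1 and near 0 on the other arrays, while clocka lies between -0.07 and -0.06 on all of them.

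The period proteins are the repressors of the loop, and the 4 genes encoding them differed in how far their arrays spread. The gene per1a had log ratios of 0.08, -0.0062 and 0.12 on replicates 1, 2 and 3, a mean of 0.07 ± 0.07 (SD, n = 3). Its adjusted p by limma was 0.456, and the 95% confidence interval of the mean ran from -0.06 to 0.19, a bound of 1.14-fold. Its ratios lay on both sides of 0.

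The paralog per1b had log ratios of 0.62 on replicate 1, -0.03 on replicate 2 and -0.00045 on replicate 3. Replicate 1 stood highest, with both probes on the positive side (0.91 and 0.34). On the other arrays the gene value near 0 is the mean of probes of opposite sign, -0.20 and 0.14 on replicate 2 and 0.11 and -0.11 on replicate 3. The mean was 0.20 ± 0.37 (SD, n = 3), with a confidence interval from -0.10 to 0.50 and an adjusted p by limma of 0.340, so the difference was within the spread between arrays. Without replicate 1 the mean was -0.016.

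The gene per2, a light-induced period gene of zebrafish measured by 1 probe, had a shape like that of the mean of the per1b probes. Its log ratios were 0.60 on replicate 1, 0.04 on replicate 2 and -0.10 on replicate 3, with a mean of 0.18 ± 0.37 (SD, n = 3). Replicate 1 again lay far above the other arrays. The adjusted p by limma was 0.395 and the interval ran from -0.12 to 0.48, and without replicate 1 the mean was -0.033.

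The gene per3 stayed near 0 on every array. It had log ratios of 0.02, 0.07 and -0.11 on replicates 1, 2 and 3, and a mean of -0.0075 ± 0.09 (SD, n = 3). Its adjusted p by limma was 0.947, and the interval ran from -0.14 to 0.13, the narrowest bound of the 9 genes.

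Among the cryptochrome and photolyase genes, cry5 encodes a light-dependent DNA repair enzyme, the (6-4) photolyase. Its log ratios were 0.14 on replicate 1, -0.06 on replicate 2 and -0.24 on replicate 3, with a mean of -0.06 ± 0.19 (SD, n = 3). The arrays lay on both sides of 0, and the adjusted p by limma was 0.678. The 2 probes of cry5 behaved differently: the first lay between -0.08 and 0.03 on all arrays, and the second had 0.35 on replicate 1, -0.16 on replicate 2 and -0.47 on replicate 3. The spread of the gene between arrays therefore comes from its second probe.

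The activator gene clocka had the narrowest spread of the clock genes. It had log ratios of -0.067 on replicate 1, -0.072 on replicate 2 and -0.061 on replicate 3, a mean of -0.07 ± 0.0058 (SD, n = 3), so all 3 arrays were on the negative side. Its adjusted p by limma was nevertheless 0.410, with an interval from -0.18 to 0.05. limma moves such a small variance of a gene towards the variance of all genes before testing, and clocka has 1 probe.

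The Rev-erb genes encode nuclear receptors that repress bmal genes. The gene nr1d2a had log ratios of 0.32 on replicate 1, 0.09 on replicate 2 and 0.51 on replicate 3, all on the positive side. Its mean of 0.31 ± 0.21 (SD, n = 3) corresponds to 1.24-fold, with an interval from 0.11 to 0.50 and an adjusted p by limma of 0.0415. This was the largest mean ratio of the 9 genes. Both probes were positive on all arrays: the first averaged 0.29 and passed when all 43603 probes were tested (adjusted p = 0.0364 by limma), and the second averaged 0.33 and did not (adjusted p = 0.137). It was the 1 clock gene probe of 14 to pass, where 10.4% of all probes passed.

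The call of nr1d2a rests on a narrow margin. Without replicate 1 its mean was 0.302 (adjusted p = 0.101 by limma), and without replicate 3 it was 0.209 (adjusted p = 0.0561), each with 1 residual degree of freedom. With a term for the dye, the mean was 0.255 and the adjusted p by limma was 0.0961. The array with swapped dyes was the lowest of the 3. The dye coefficient of nr1d2a was 0.16 and did not pass (unadjusted p = 0.0725 and adjusted p = 0.9996 by limma).

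The other Rev-erb gene measured among the members, nr1d1, had log ratios of 0.03, -0.04 and 0.09 on replicates 1, 2 and 3. They lay on both sides of 0, with a mean of 0.03 ± 0.07 (SD, n = 3) and an adjusted p by limma of 0.766. The ratio of nr1d2a exceeded that of nr1d1 by 0.29 on replicate 1, 0.13 on replicate 2 and 0.42 on replicate 3, a mean difference of 0.28 ± 0.14 (SD, n = 3). This pair was compared after its values were seen, and a sign permutation over 3 arrays cannot give a two-sided p below 0.25, so no test is given.

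The last of the members, dbpa, encodes a PAR bZIP factor that binds D-box elements. Its log ratios were 0.20 on replicate 1, 0.10 on replicate 2 and 0.03 on replicate 3, all on the positive side. The mean of 0.11 ± 0.09 (SD, n = 3) did not pass (adjusted p = 0.231 by limma), with an interval from -0.02 to 0.24.

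**Figure D2:**
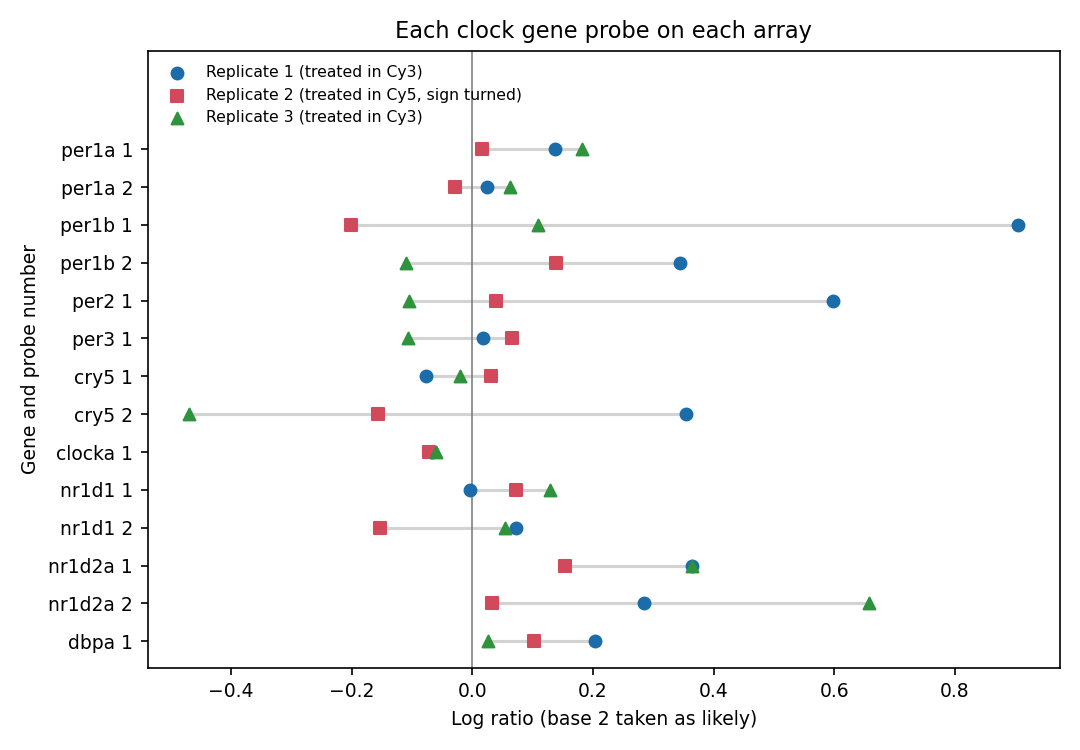
Log ratio (x axis, base 2 taken as likely) of each of the 14 clock gene probes on the 3 arrays, with a grey line over the range of each probe. Both per1b probes are highest on replicate 1, at 0.91 and 0.34, and the 2 cry5 probes differ in spread.

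Taken in order of their mean ratios, the genes ran from nr1d2a through per1b, per2, dbpa, per1a, nr1d1, per3 and cry5 to clocka. Of the 8 differences between neighbours in this order, 1 exceeded its own SD over the arrays, that of per1a over nr1d1 (0.04 ± 0.0080, n = 3), and the other 7 did not. Genes farther apart in the order were not compared in this way, apart from nr1d2a and nr1d1 above. Where a gene had 2 probes, their means over the arrays lay about as far apart as elsewhere. Such a gap does not show differences on single arrays, such as those of per1b and cry5 given above. The gap between probe means was 0.09 for per1a, 0.15 for per1b, 0.07 for cry5, 0.07 for nr1d1 and 0.03 for nr1d2a, against a median of 0.09 over 4515 genes with 2 probes. Probe sequences were not used here, so binding of a probe by a paralog was not tested.

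For all members but nr1d2a, the confidence interval included 0. Its outer bound was at most 1.41-fold, for per1b. These intervals rest on the spread between arrays, after limma moved the variance of each gene towards that of all genes. The error of the untreated pool, which every ratio holds, is not in them.

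The spread between arrays set some clock genes apart from each other more than their means did. Over all genes the SD between arrays had a median of 0.091 and a 95th percentile of 0.24. The SDs of per1b and per2, both 0.37, were exceeded by 1.18% and 1.16% of genes. Taken singly, the 2 probes of per1b had SDs of 0.57 and 0.23. By contrast, clocka lay at the 0.321 percentile of SD. Of the 9 members, 4 had an SD above the median (per1b, per2, cry5 and nr1d2a) and 5 below it. Since the pool is common to all arrays, these spreads come from differences between treated replicates or between hybridisations, which cannot be told apart.

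**Figure D3:**
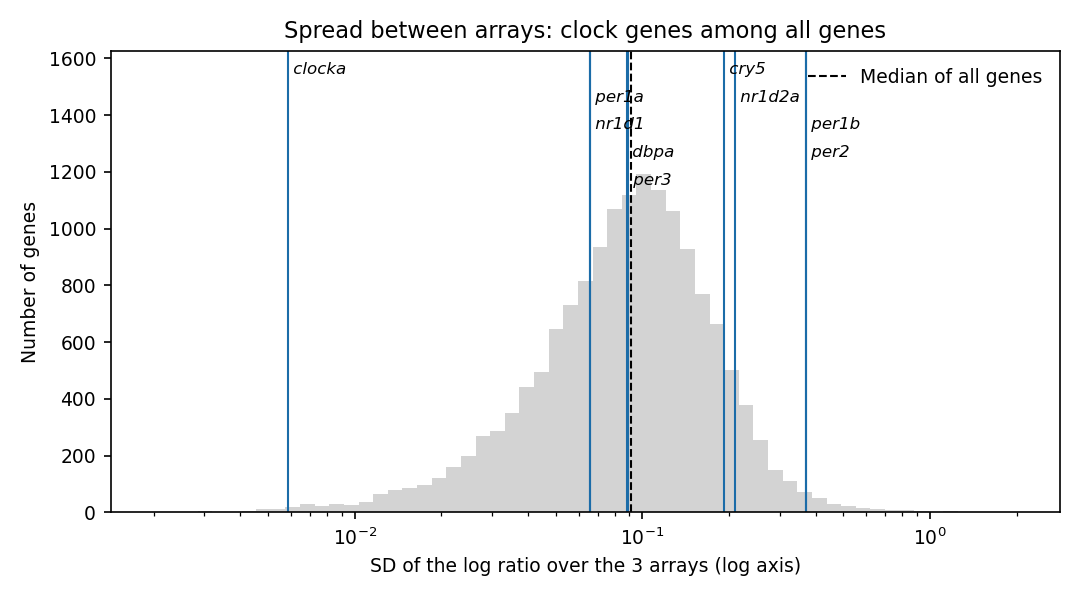
Number of genes (y axis) by the SD of their log ratio over the 3 arrays (x axis, log axis), with the 9 clock genes as blue lines and the median of all genes, 0.091, dashed. The lines of per1b and per2 at 0.37 lie in the upper tail and that of clocka at 0.0058 in the lower tail.

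By the distance between the ratios on the 3 arrays, the genes most like nr1d2a were plpp3 (distance 0.054), xpr1a (0.074) and hp1bp3 (0.074). All had their lowest ratio on replicate 2, as nr1d2a did, which follows from how they were chosen. Likeness over 3 ratios is a description only.

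The rest of the pathway was read from lists by role. Lists of light-induced DNA repair genes and glucocorticoid-induced genes, which are not parts of the loop described above, were read with it. Together the lists held 53 measured genes besides the members, called other clock pathway genes below. Positive calls numbered 5, negative calls 5, and 43 genes did not pass. The DNA repair list gave 2 of the negative calls, and the glucocorticoid list 1 of the positive ones. The share called was 18.9%, next to 19.4% of all genes, and the median mean ratio was -0.022, next to -0.0013 over all genes.

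Of the 5 measured partners and paralogs of clocka, 0 passed by limma, against 19.4% of all genes, and 0 had an unadjusted p below 0.05. The mean ratios were -0.05 for clockb, -0.05 for npas2, -0.03 for bmal1a, -0.11 for bmal1b and -0.04 for bmal2, with adjusted p values by limma from 0.169 to 0.826. All 5 means were on the negative side, like that of clocka, and the largest had a size of 0.11. Only 2 of the 5, npas2 and bmal1b, were negative on all 3 arrays. The gene bmal1a was positive on replicates 1 and 2 (0.08 and 0.07), and clockb (0.0061) and bmal2 (0.06) on replicate 3.

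Of 7 other cryptochrome and photolyase genes, 1 passed on each side. The cryptochrome gene cry3b had log ratios of 0.15, 0.28 and 0.27 on replicates 1, 2 and 3, with a mean of 0.23 ± 0.07 (adjusted p = 0.0259 by limma), although the mean of 1 of its 2 probes was 0.18 (adjusted p = 0.250 when probes were tested singly). Without replicate 2 or with a dye term, cry3b did not pass (adjusted p = 0.204 and 0.0931). The photolyase gene cpdp, which repairs pyrimidine dimers in light, had -0.31, -0.27 and -0.35, with a mean of -0.31 ± 0.04 (adjusted p = 0.00717 by limma) and both probes past the threshold, but it did not pass without replicate 2 (0.0654). The genes cry1b (0.03), cry2 (-0.0084), cry4 (-0.06), cry-dash (-0.07) and cry3a (-0.04) did not pass. Of these, cry3a had -0.57 on replicate 1, 0.06 on replicate 2 and 0.38 on replicate 3, the reverse of the array order of per2.

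The largest ratios of the loop beside the members were those of Ror genes, nuclear receptors that act on the same elements as the Rev-erb proteins. The gene rorab had log ratios of 1.02, 0.96 and 0.76 on replicates 1, 2 and 3, a mean of 0.91 ± 0.13 (adjusted p = 0.000323 by limma). The gene rorb, known from the retina and brain, had 0.81, 0.67 and 1.20, a mean of 0.89 ± 0.27 (adjusted p = 0.00173 by limma). Both genes, each with 1 probe, were well on the positive side on every array.

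The remaining genes of this loop did not pass. Their mean ratios were 0.13 for roraa, -0.02 for rorcb, -0.06 for nr1d4a and -0.13 for nr1d4b. Of the 2 probes of roraa, 1 averaged 0.24 and passed when probes were tested singly (adjusted p = 0.0437 by limma). The other averaged 0.03 and did not pass. The 6 measured Ror and Rev-erb genes outside the members thus gave 2 positive calls and 0 negative ones. Over all genes, 9.95% passed on the positive side. Of 8 markers of the pineal organ and photoreceptors, 4 passed on the positive side as well, 0 passed opposite and 4 did not pass. The list had a median of 0.24 and array means from 0.59 to 0.66, with crx at 2.40 and otx5 at 1.49, while those that did not pass lay between -0.0056 and 0.13. Their part in the ratio of rorb was not tested. Within that list, the opsin gene exorh had a mean of 0.48 (adjusted p = 0.00158 by limma). Another opsin gene of the list, parapinopsinb, had -0.0056 (adjusted p = 0.957). The mean of aanat2, for the clock-controlled enzyme of melatonin synthesis, was 0.07 (adjusted p = 0.497).

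Of 9 other PAR bZIP and Nfil3 genes, which share the D-box element, there was 1 positive call and 0 negative ones. Over all genes, 9.95% passed on the positive side. The D-box repressor gene nfil3-5 had log ratios of 0.47, 0.19 and 0.27 on replicates 1, 2 and 3, with a mean of 0.31 ± 0.15 (adjusted p = 0.0203 by limma). It did not pass without replicate 1 (adjusted p = 0.0721), without replicate 2 (0.0653) or with a dye term (0.0800), each with 1 residual degree of freedom. The mean ratios of those that did not pass were -0.11 for dbpb, -0.24 for tefa, 0.09 for tefb, 0.07 for hlfa, 0.04 for hlfb, 0.14 for nfil3, 0.08 for nfil3-4 and 0.07 for nfil3-6. The paralog dbpb had -0.30, -0.16 and 0.12 on replicates 1, 2 and 3, against 0.20, 0.10 and 0.03 for dbpa, so the paralogs lay on opposite sides on replicates 1 and 2.

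Of 3 E-box feedback repressors, 0 passed by limma, against 19.4% of all genes, and 1, bhlhe40, had an unadjusted p below 0.05. It had log ratios of 0.01 on replicate 1, -0.49 on replicate 2 and -0.57 on replicate 3, with a mean of -0.35 ± 0.31 (adjusted p = 0.0736). The mean ratios of bhlhe41 (-0.12) and ciarta (0.04) did not pass.

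Of 9 kinase, ubiquitin ligase and associated genes, there were 2 negative calls and 0 positive ones. Over all genes, 9.44% passed on the negative side. The gene fbxl3a, for a ubiquitin ligase subunit that targets cryptochromes, had -0.27, -0.34 and -0.62 on replicates 1, 2 and 3, with a mean of -0.41 ± 0.18 (adjusted p = 0.0116 by limma). It has 1 probe and did not pass without replicate 2 (adjusted p = 0.0680 by limma) or with a dye term (0.0543). The gene tipin, whose product binds Timeless at replication forks, had -0.44, -0.46 and -0.42, with a mean of -0.44 ± 0.02 (adjusted p = 0.00176 by limma), and all of its 3 probes passed. Markers of proliferating cells lay on the negative side too, with 10 of 10 passing there and list means from -0.64 to -0.35 over the arrays, and their part in the ratio of tipin was not tested. The partner gene timeless had a mean of 0.01 ± 0.03 (adjusted p = 0.920 by limma).

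**Figure D4:**
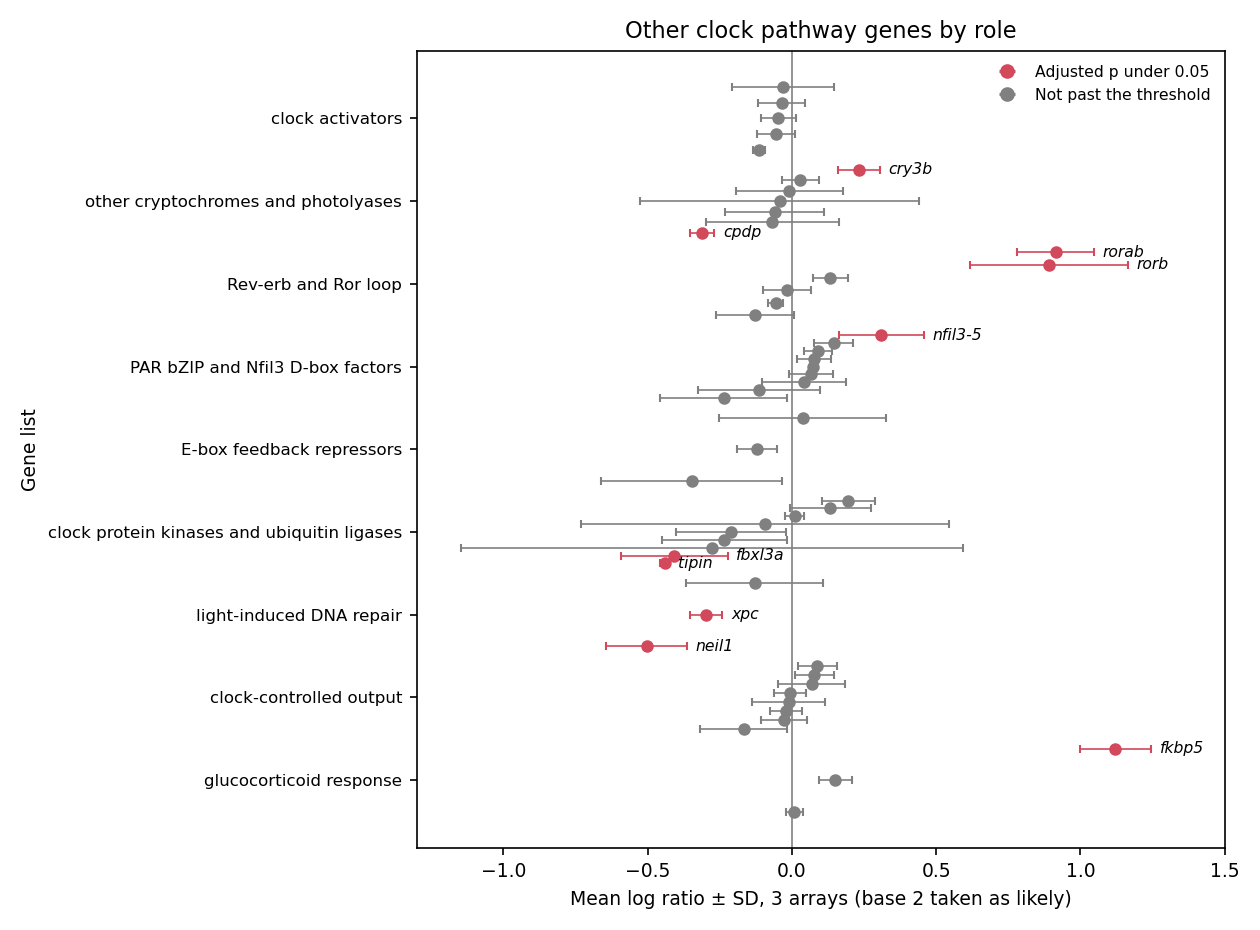
Mean log ratio ± SD over the 3 arrays (x axis, base 2 taken as likely) of 53 listed genes beside the members. The y axis gives the list, and genes past an adjusted p of 0.05 are in red and named. The lists include light-induced DNA repair genes and glucocorticoid-induced genes. The Ror genes rorab (0.91) and rorb (0.89) and the glucocorticoid target fkbp5 (1.12) lie farthest from 0. The DNA repair gene neil1 (-0.50) lies farthest on the negative side.

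Of 3 light-induced DNA repair genes, there were 2 negative calls and 0 positive ones, where 9.44% of all genes passed on the negative side. The DNA glycosylase gene neil1, with 1 probe, had log ratios of -0.35, -0.62 and -0.54 on replicates 1, 2 and 3. Its mean was -0.50 ± 0.14 (adjusted p = 0.00314 by limma). The damage recognition gene xpc had -0.23, -0.32 and -0.33, with a mean of -0.30 ± 0.06 (adjusted p = 0.00934), and 1 of its 2 probes did not pass (-0.26, adjusted p = 0.0696). It was not called without replicate 2 (adjusted p = 0.103) or with a dye term (0.0503). The gene ddb2 had a mean of -0.13 ± 0.24 and did not pass (adjusted p = 0.384). The light-induced members per2 and cry5 did not pass. Without replicate 1, the ratio of ddb2 was -0.26 (adjusted p = 0.0417 by limma, with 1 residual degree of freedom). Those of tefa, -0.36 (adjusted p = 0.0160), and bhlhe40, -0.53 (adjusted p = 0.00346), passed as well. These genes were picked out after their values were seen. Of the clock pathway genes beside the members, 14 passed without replicate 1 and 13 without replicate 3, against 10 on all arrays. Over all genes, the count fell from 3016 on all arrays to 2132 without replicate 1, and rose to 3706 without replicate 3. The rise without replicate 3 was thus shared with all genes, and that without replicate 1 was not. Among the 9 members, the count fell from 1 to 0 in both fits. Each fit leaves 1 residual degree of freedom, so nothing particular to the clock genes is read from these changes.

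Of 8 clock output genes, 0 passed by limma, against 19.4% of all genes, and 1 had an unadjusted p below 0.05. Their mean ratios ran from -0.17 for wee1, a kinase that restrains entry into mitosis, to 0.09 for asmt2. On the positive side, where 9.95% of all genes passed, there was 1 call among 4 measured glucocorticoid-induced genes. It was fkbp5, a glucocorticoid receptor co-chaperone gene, which had log ratios of 1.19, 0.98 and 1.20 on replicates 1, 2 and 3, a mean of 1.12 ± 0.12, or 2.18-fold (adjusted p = 0.000129 by limma). The other glucocorticoid-induced genes had means of 0.15 for klf9, 0.0091 for tsc22d3 and 0.07 for per1a, and did not pass.

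Replicates 1 and 3 carried the dyes in the same order, so their difference holds no dye effect of the swap. The ratio of per2 was 0.70 higher on replicate 1 than on replicate 3, and that of per1b 0.62 higher, where the median size of this difference over all genes was 0.12. The cryptochrome gene cry3a ran the other way, with -0.95, as did dbpb (-0.42) and rorb (-0.39) for replicate 1 minus replicate 3. The largest differences in the clock lists were those of the casein kinase genes csnk1db and csnk1da, whose products phosphorylate period proteins. The gene csnk1db had 0.59, -0.27 and -1.15 on replicates 1, 2 and 3, and csnk1da had 0.53, -0.07 and -0.74. Their means of -0.28 and -0.09 did not pass (adjusted p = 0.557 and 0.807 by limma), and each gene had 1 probe. Without replicate 1, csnk1db had a mean of -0.71 (adjusted p = 0.0386 by limma, with 1 residual degree of freedom). These genes were picked out after their values were seen.

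**Figure D5:**
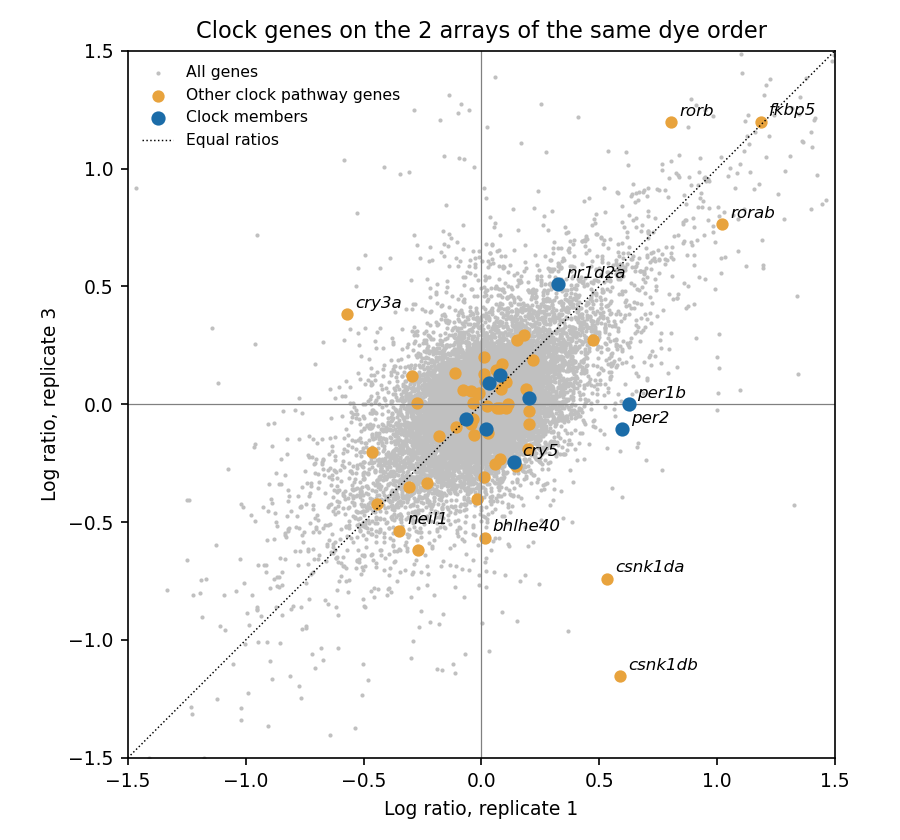
Log ratio on replicate 3 (y axis) against replicate 1 (x axis) for all genes in grey, the clock members in blue and the other clock pathway genes in orange, with a dotted line at equal ratios. The genes per1b, per2, csnk1da and csnk1db lie below the line, and rorab, rorb and fkbp5 lie on the positive side on both arrays; 58 genes with a ratio beyond 1.5 in size are outside the window.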

How the data were processed

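The deposited table holds 1 value per probe and array, taken as log2 ratios that the authors made with Partek, per the submitters' processing notes. The background correction, normalisation, numerator and log base were not given in the sources used here. Per the labels' protocols, RNA was amplified with T7 polymerase and labelled with Cy3 or Cy5. Of 43648 probes, 45 controls were left out. The platform annotation named a single gene for 23717 probes, more than one for 0 and no gene for 19886. Symbols were checked by Entrez identifier in a GRCz12tu gene table, where 0 differed. As deposited, replicate 2 correlated with replicates 1 and 3 at r = -0.742 and -0.647, and replicates 1 and 3 at 0.521, and the sign of replicate 2 was turned. Probes of a gene were averaged. With limma 3.58.1 (lmFit and eBayes, R 4.3.3), mean ratios were set against 0 at 2 residual degrees of freedom, with p-values adjusted after Benjamini and Hochberg over 15554 genes. The code was checked on simulated data. These held no pool error or dye effect, so the check bears on the code and not on the design. The pool counts as 1 control sample, so its own error is not in the test. The labels do not say whether replicates came from separate clutches, so p-values measure the spread between these samples.

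The members and lists were chosen with earlier results of these data known. Every member is named with every probe. Of the other lists, genes past the threshold are named, and every measured gene of the activator, cryptochrome, Ror and Rev-erb, and PAR bZIP lists. The nearest patterns are the 3 genes at the smallest Euclidean distance from the member with the largest mean. Alternatives were centring, scaling and quantile normalisation of the arrays, a dye term, robust eBayes, the median over probes, single probes, a stricter threshold and fits without each replicate. Figures used matplotlib 3.10.9 (Python 3.11.15).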

Additional observations from a re-analysis of the deposited data

How the results depend on the processing

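The call of nr1d2a was lost in 4 of its alternatives, where the count of clock genes past the threshold was 0: with a dye term, at an adjusted p of 0.01, without replicate 1 and without replicate 3. It was the same count of 1 with each array centred or scaled, after quantile normalisation, with robust eBayes, with the median over probes, without replicate 2 and with probes tested singly. With 1 replicate left out, the sign of 5 members that did not pass turned. Their means ranged from -0.016 (without replicate 1) to 0.312 for per1b, from -0.033 (without replicate 1) to 0.318 for per2, from -0.044 to 0.042 (without replicate 3) for per3, from -0.154 to 0.038 (without replicate 3) for cry5 and from -0.0028 (without replicate 3) to 0.063 for nr1d1. The mean of per3 also turned with a dye term (0.011). Over all genes, 1501 passed with a dye term, 1434 at an adjusted p of 0.01, and from 1066 (without replicate 2) to 3706 (without replicate 3) with 1 replicate left out (2132 without replicate 1), against 3016 on all arrays. Of the other clock pathway genes, 6 passed with a dye term, against 10 on all arrays. The fit without replicate 1 gave 14 calls (4 positive and 10 negative), and that without replicate 2 gave 5. Without replicate 3 there were 13 (6 positive and 7 negative). Of the 14, 9 were among the 10, and the other 5, all on the negative side, were bhlhe40, csnk1a1, csnk1db, ddb2 and tefa. The dye term and each fit without a replicate leave 1 residual degree of freedom. No paired analysis was possible because all arrays belong to 1 group set against a single pool. No intensities were available, so dim probes could not be left out.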

Other observations

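The array on which a clock gene was highest varied between the lists, as noticed after the values were seen and given without a test. Among the 9 members, replicate 1 was the highest array for 4 and the lowest for 0. Replicate 2, with swapped dyes, was the highest for 1 and the lowest for 5. Replicate 3 was the highest for 4 and the lowest for 4. Over all genes, replicate 1 was the highest for 35.1% and the lowest for 34.4%. The shares were 29.5% and 26.4% for replicate 2, and 35.4% and 39.2% for replicate 3. Among the 53 other clock pathway genes, replicate 2 was the highest for 12 and the lowest for 20, and replicate 3 for 17 and 20. Replicate 1 was the highest for 24 of these and the lowest for 13. By list, it was the highest for 3 of 3 light-induced DNA repair genes, 5 of 9 PAR bZIP and Nfil3 genes, 4 of 7 cryptochrome and photolyase genes, 4 of 9 kinase and ligase genes, 3 of 6 Ror and Rev-erb genes and 2 of 3 E-box repressors. It was the highest for 1 of 5 activators, 2 of 8 output genes and 0 of 4 glucocorticoid-induced genes. For 4 of those 8 and 2 of those 4, it was the lowest. The 4 glucocorticoid-induced genes include the member per1a, which is not among the 53.

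The gene ddb2 had log ratios of 0.15, -0.27 and -0.26 on replicates 1, 2 and 3. The light-induced photolyase-family gene cry-dash had 0.20, -0.21 and -0.19, and tefa, a light-induced PAR bZIP gene of zebrafish, 0.0095, -0.41 and -0.31. These genes were picked out after their values were seen, and a link to light was not tested. Of other light-induced genes, cry5 had 0.14, -0.06 and -0.24. Both xpc (-0.23, -0.32 and -0.33) and neil1 (-0.35, -0.62 and -0.54) were negative on every array. Other genes of the lists had other orders, such as ciarta, an E-box repressor, with 0.22, -0.30 and 0.19.

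The 2 probes of cry3a shared its array order, with -0.40, 0.08 and 0.59 for the first and -0.74, 0.04 and 0.18 for the second on replicates 1, 2 and 3. Its SD between arrays, 0.48, lay at the 99.5 percentile of all genes.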
